A study of Mus musculus with 16 samples.

Results

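Histidine and proline breakdown was described here by 7 genes: Hal, Uroc1, Amdhd1 and Ftcd for histidine, and Prodh, Prodh2 and Aldh4a1 for proline. They were chosen by name as the enzymes of both routes, from 55487 genes in the table. All 7 were among the 11839 genes with a mean TPM (a transcript level corrected for gene length and library total) of at least 1, which were the genes tested. The data were liver RNA-seq profiles of 16 obese male C57BL6/J mice, 4 in each of 4 groups, and the question was how G108 treatment and dietary protein relate to the liver transcriptome.

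G108 is a long-acting peptide agonist of the glucagon receptor. Every mouse had received a 60 kcal% high fat diet for 8 weeks before the study, starting at 10 weeks of age per the labels, and the control groups share this obesity. The study's methods give another age and feeding schedule, so these figures differ between sources. The vehicle SP group received vehicle on a high fat, standard protein diet and the vehicle HP group received vehicle on a high fat, high protein diet. The G108 SP and G108 HP groups received 2.5 nmol/kg G108 by daily subcutaneous injection on the same diets, for 22 days. Livers were taken after a 4 h fast. Each library was 1 mouse. Whole liver was sequenced, so fewer cells of a type and less RNA per cell cannot be told apart.

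Histidine is broken down almost entirely in the liver. Histidase, encoded by Hal, removes ammonia to give urocanate, urocanase (Uroc1) hydrates it, and imidazolonepropionase (Amdhd1) opens the ring to give formiminoglutamate. The enzyme encoded by Ftcd then passes the formimino group to tetrahydrofolate and leaves glutamate. In mitochondria, proline dehydrogenase (Prodh) oxidises proline to pyrroline carboxylate. Prodh2 encodes hydroxyproline dehydrogenase, the liver and kidney enzyme that starts hydroxyproline breakdown. Aldh4a1, the dehydrogenase shared by both of these branches, turns pyrroline carboxylate from proline into glutamate, whereas in the hydroxyproline branch its product is a hydroxylated glutamate that goes on to glyoxylate and pyruvate. Histidine and proline breakdown thus both end in glutamate, which can be deaminated for urea and gluconeogenesis, and glucagon is known as a stimulus of amino acid breakdown in the liver.

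In GRCm38 the histidine genes lie partly together. Hal is at chr10:93488768-93519304 on the plus strand and Amdhd1 at chr10:93523338-93540033 on the minus strand. They face each other across a gap of 4033 bases that holds 0 other genes. Ftcd is on the same chromosome at chr10:76575648-76590338, and Uroc1 is at chr6:90333284-90364551, both on the plus strand. For proline, Prodh is at chr16:18060357-18090203 on the minus strand, Prodh2 at chr7:30493622-30513402 and Aldh4a1 at chr4:139622866-139649690, both on the plus strand. Overlaps with other genes matter for the proline members. Aldh4a1 shares 1595 of its 4907 exon bases with Gm21969, a protein-coding gene model on the same strand that spans chr4:139603186-139662691. Whether reads there were left out or counted for either gene is not known, and Aldh4a1 values are uncertain to that extent. Prodh overlaps Dgcr6 on the opposite strand with 0 shared exon bases.

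Promoter sequences from RefSeq (GRCm38.p6) are shown for the 3 genes with the highest G108 estimates on the SP diet (Aldh4a1, Hal and Amdhd1) and for Ftcd, the gene with the motif closest to the cAMP pathway through which glucagon signals. Each runs 5′ to 3′ in the gene's own direction and ends at the last base before the annotated gene. The windows are chr4:139622644-139622865 for Aldh4a1, chr10:93488518-93488767 for Hal, chr10:93540034-93540283 (minus strand) for Amdhd1 and chr10:76575398-76575647 for Ftcd. Capitals mark every match, on either strand, to the motifs searched. The cAMP response element was searched as the letters TGACGTCA. Its half-site, which the full element contains, was searched separately as TGACG. The half-site of the liver factor HNF1 was taken as GTTAAT, the TATA box of core promoters as TATAAA, and the fifth motif was the CCAAT box, named by its letters.
Aldh4a1: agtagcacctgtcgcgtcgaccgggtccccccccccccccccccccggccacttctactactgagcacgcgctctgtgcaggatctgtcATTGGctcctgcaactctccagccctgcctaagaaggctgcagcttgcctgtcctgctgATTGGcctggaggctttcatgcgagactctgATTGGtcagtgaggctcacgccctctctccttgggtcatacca
Hal: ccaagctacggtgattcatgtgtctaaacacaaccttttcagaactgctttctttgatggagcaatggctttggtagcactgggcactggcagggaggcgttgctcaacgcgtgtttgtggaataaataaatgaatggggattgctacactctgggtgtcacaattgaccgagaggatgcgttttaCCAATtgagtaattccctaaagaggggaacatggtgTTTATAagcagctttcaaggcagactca
Amdhd1: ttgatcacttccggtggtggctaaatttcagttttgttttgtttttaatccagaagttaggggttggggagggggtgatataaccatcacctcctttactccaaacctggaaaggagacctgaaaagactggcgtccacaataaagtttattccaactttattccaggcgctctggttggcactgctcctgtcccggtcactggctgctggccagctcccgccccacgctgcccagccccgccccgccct
Ftcd: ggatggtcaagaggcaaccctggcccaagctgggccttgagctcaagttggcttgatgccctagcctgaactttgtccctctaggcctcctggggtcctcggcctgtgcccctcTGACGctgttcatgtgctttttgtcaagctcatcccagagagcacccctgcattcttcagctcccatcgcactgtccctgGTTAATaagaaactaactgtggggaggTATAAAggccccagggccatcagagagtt

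No motif was shared by all 3 of the members with the highest G108 estimates in the fit of all 16 livers. Without vehicle SP mouse 4, the log2 estimate of Uroc1 on the SP diet (0.36) was above that of Hal (0.32). The Aldh4a1 window held the CCAAT box 3 times, in each case as its reverse complement. Hal held 1 CCAAT box, and a TATA box on the reverse strand. The Amdhd1 window held 0 of the letters searched. Ftcd was the only member with the cAMP half-site, which 17.8% of the 32851 promoters in the RefSeq set contained, and it also held an HNF1 half-site and a TATA box. The full cAMP response element was in 0 of the 7 member windows and in 1.55% of all promoters. The window of Prodh lay inside the annotated gene. An HNF1 half-site was found in 2 members (Ftcd and Prodh2) and in 6.43% of all promoters, a TATA box in 2 members and 12.4%, and a CCAAT box in 4 members and 33.8%. These matches are descriptions of letters in short windows and not evidence of binding.

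The counts and the SP results are given on a pair of scales, because the scales differ for the libraries compared. Recovered reads per library ranged from 27804258 to 45033380, and the 7 genes held 3203 to 23968 reads each in every library, so counting error was small beside the spread between mice. The major urinary protein (Mup) genes held a median of 45.3% of TPM in vehicle SP, 39.5% in vehicle HP, 21.3% in G108 SP and 24.9% in G108 HP. Mitochondrial genes held a median of 16.1%, 17.5%, 19.0% and 24.2% in the same order of groups. TPM has a fixed total, so a change in such large shares moves the values of other genes. The part of each share in the shifts that follow was not tested. The median gene was 0.60 higher on the log2 scale with G108 on the SP diet in TPM as deposited, and 0.09 higher on the HP diet. The main values are therefore TPM after median-of-ratios scaling (scaled TPM), in which the corresponding medians were -0.01 and 0.00, and values in TPM as deposited are given beside them. Liver identity was clear, with summed scaled TPM of 17835 to 25969 for 5 hepatocyte markers against at most 1.23 for adipocyte, 1.50 for skeletal muscle and 1.62 for exocrine pancreas markers.

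A single control liver stood apart for these genes. Vehicle SP mouse 4 had 318 scaled TPM of Prodh2 against 121 to 138 in the other 3 mice of its group, and 64.7 of Prodh against 22.0 to 29.9. It was also high for Ftcd (279 against 140 to 186) and Uroc1 (184 against 88.5 to 119), and low for Hal (25.2 against 35.1 to 46.4). Its Amdhd1 value lay inside the range of its group and its Aldh4a1 value was 55.0 against 46.9 to 53.5. The same library had the steepest dependence of expression on GC content of all 16 (0.084 log2 per 10 GC points, against -0.078 to 0.037 in the others) and the highest summed red blood cell marker level (3094 scaled TPM, 5 genes). The part of either in the Prodh2, Prodh, Ftcd, Uroc1 and Hal values was not tested, and the SP estimates are given with and without this mouse.

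**Figure D1:**
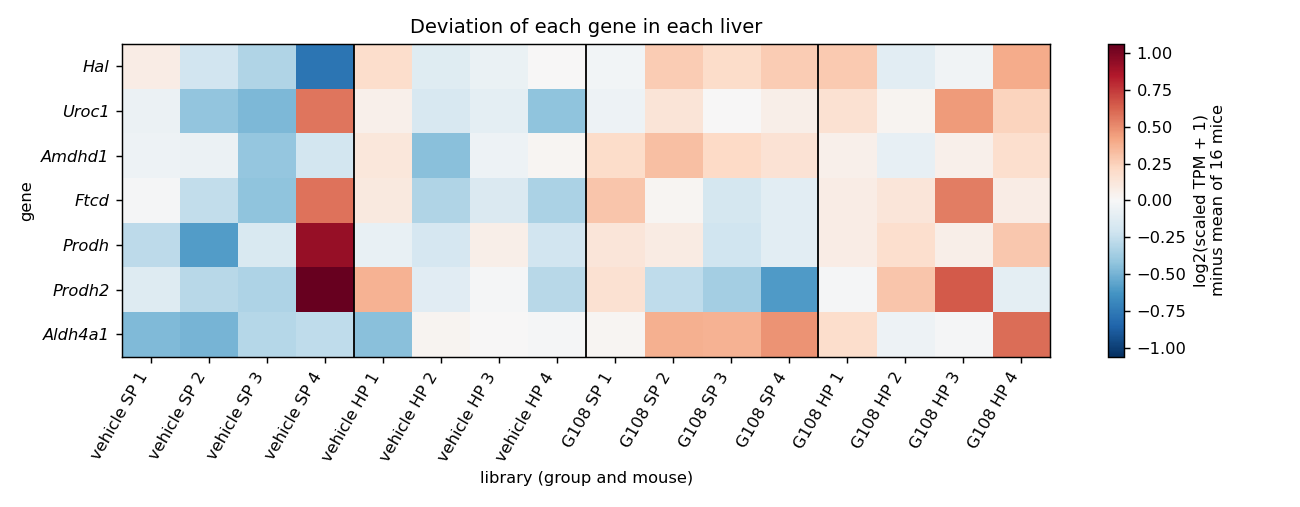
Each square is the log2(scaled TPM + 1) of 1 gene (rows) in 1 liver (columns) minus the mean of that gene over 16 mice, with lines between the 4 groups. Vehicle SP mouse 4 is the darkest red column for Prodh and Prodh2 and the darkest blue square for Hal, and 3 of the 4 G108 SP livers are red for Aldh4a1.

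The order of the members by TPM, which is per length and allows genes to be compared, was similar in all groups. Ftcd had the highest mean in each, from 148 ± 30.1 TPM (SD, n = 4) in vehicle SP to 257 ± 8.27 in G108 SP. Prodh2 and Uroc1 came next, and their ranges overlapped in every group. Within livers Prodh2 was above Uroc1 in 4 of 4 mice in both vehicle groups and in 3 of 4 in G108 HP. Uroc1 was above Prodh2 in 3 of 4 G108 SP livers. Amdhd1 and Aldh4a1 followed, also with overlapping ranges in every group. Within livers Amdhd1 was above Aldh4a1 in 4 of 4 vehicle SP and 3 of 4 vehicle HP mice. With G108, Aldh4a1 was above Amdhd1 in 2 of 4 livers on each diet. Prodh was lowest, at 27.7 ± 11.3 TPM in vehicle SP and 45.1 ± 1.76 in G108 SP, and its range lay apart from that of Hal, the next higher gene, in vehicle HP and G108 SP but not in vehicle SP or G108 HP. The only other gap between neighbouring genes in the vehicle groups was between Uroc1 and Amdhd1, on both diets. In G108 SP livers, by contrast, Ftcd lay clear of Uroc1, Prodh2 of Aldh4a1, and Amdhd1 of Hal.

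**Figure D2:**
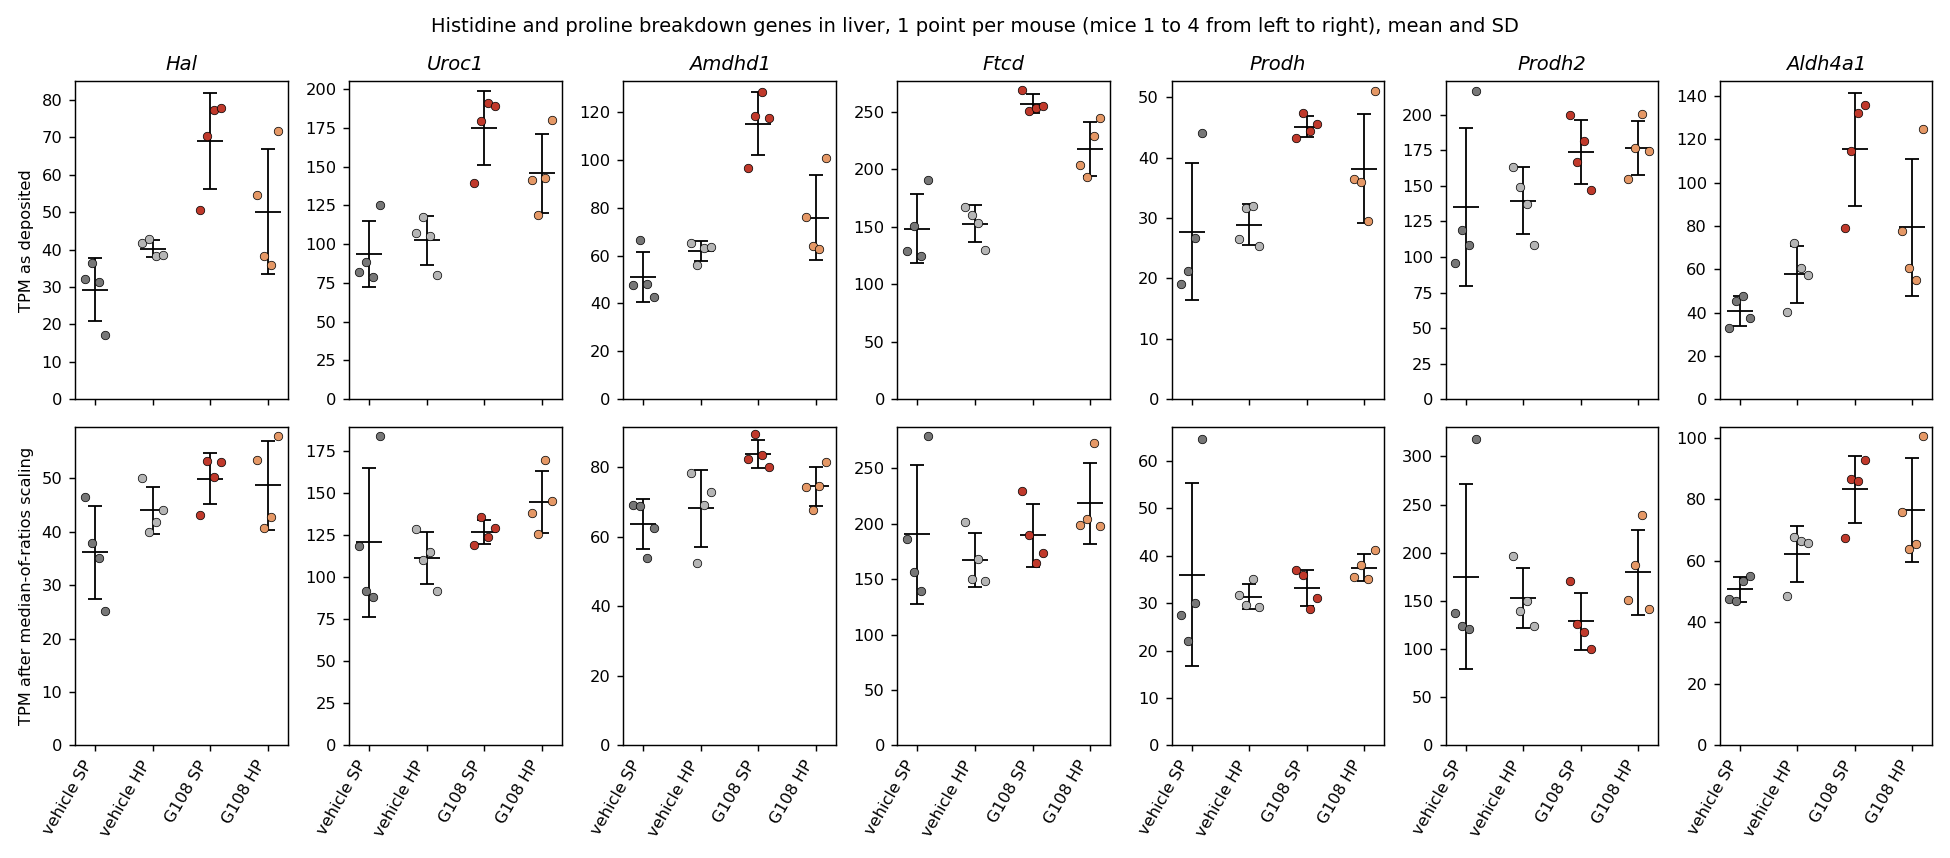
Each point is 1 mouse, with the group mean and SD as bars, for the 7 genes in TPM as deposited (upper row) and scaled TPM (lower row). Aldh4a1 and Amdhd1 separate G108 SP from vehicle SP in both rows, whereas Hal, Uroc1 and Ftcd do so only in the upper row.

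The first comparison asked what G108 did on the SP diet. Of the 7 genes, 1 passed the test (limma, adjusted p under 0.05 over all genes) in scaled TPM, against 2.72% of all genes tested. This was Aldh4a1, whose enzyme makes glutamate in the proline branch. Hal and Amdhd1 had the next highest estimates without passing, and the estimates for Uroc1, Ftcd, Prodh and Prodh2 were closer to 0 or below it. At an unadjusted p under 0.05 in the limma fit there were 3 of 7, beside 2098 of 11839 genes. The median log2 difference of the 7 genes was 0.14, beside -0.01 for all genes. In TPM as deposited 6 of 7 passed, all but Prodh2, against 77.6% of all genes, and the median of the 7 was 0.91 beside 0.60 for all genes. On that scale the groups did not overlap for 5 of 7 (Hal, Uroc1, Amdhd1, Ftcd and Aldh4a1), against 56.4% of all genes. Aldh4a1 was thus the only member that passed on both scales.

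Aldh4a1 was at 47.6, 46.9, 53.5 and 55.0 scaled TPM in vehicle SP mice 1 to 4. In G108 SP mice 1 to 4 it was at 67.5, 86.7, 86.1 and 92.8. All 4 treated livers were above all 4 controls, and the lowest treated value was that of mouse 1. The log2 difference was 0.70 (SE 0.15, 95% interval 0.37 to 1.03, limma adjusted p = 0.0238), which ranked 282 among 11839 genes. Before scaling, the same livers were at 32.9 to 47.7 and 79.1 to 136, with a log2 difference of 1.46 (adjusted p = 0.000735). The call in scaled TPM lay close to the threshold. The limma adjusted p ranged from 0.00023 to 0.0896 over all alternatives, and the call was lost when vehicle SP mouse 2 or G108 SP mouse 2, 3 or 4 was left out, with log2 differences of 0.66, 0.67, 0.68 and 0.64. It was also lost with no filter on low genes, with only the groups compared and with rescaling without mitochondrial and Mup genes, and kept without vehicle SP mouse 4 (log2 difference 0.74, adjusted p = 0.0362).

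The gene model that overlaps Aldh4a1 was measured beside it. Gm21969 was at 15.4 to 23.4 scaled TPM in the 4 vehicle SP livers and at 20.7, 40.1, 44.3 and 50.7 in G108 SP livers. The ranges overlapped through G108 SP mouse 1, and the log2 difference of 0.96 (SE 0.35, limma adjusted p = 0.177) did not pass. In TPM as deposited it was at 10.6 to 20.8 and 24.2 to 74.3, without overlap (as for 56.4% of all genes), and the log2 difference of 1.70 passed (adjusted p = 0.0040). How reads in the shared exons were assigned was not tested.

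Hal, which commits histidine to breakdown, was at 46.4, 37.9, 35.1 and 25.2 scaled TPM in vehicle SP livers and 43.1, 53.2, 50.3 and 53.0 in G108 SP livers. The groups overlapped through vehicle mouse 1 and treated mouse 1. The log2 difference was 0.48 (SE 0.16, 95% interval 0.13 to 0.83), with an unadjusted p of 0.0101 in the limma fit and an adjusted p of 0.148, and without vehicle SP mouse 4 it was 0.32. The deposited Hal values ranged from 17.2 to 36.5 with vehicle and from 50.5 to 77.7 with G108, a log2 difference of 1.24 (adjusted p = 0.00119, range over alternatives 0.00119 to 0.319).

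Amdhd1, the neighbour of Hal and the third enzyme of the route, was at 69.2, 68.9, 53.8 and 62.7 scaled TPM with vehicle and 82.3, 89.7, 83.4 and 80.1 with G108. The groups did not overlap, which was so for 2 of 7 members (Amdhd1 and Aldh4a1) and for 9.21% of all genes. Amdhd1 was also the member that varied least among G108 SP mice, with a coefficient of variation of 4.90%. The log2 difference was 0.40 (SE 0.12, 95% interval 0.14 to 0.66), with a limma adjusted p of 0.107, and without vehicle SP mouse 4 it was 0.39. Without scaling it was 1.17 (adjusted p = 0.000341, range over alternatives 0.000341 to 0.258).

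The other members of the histidine route had estimates near 0 in scaled TPM. Uroc1 was at 119, 91.9, 88.5 and 184 with vehicle and 119, 136, 124 and 129 with G108, with a log2 difference of 0.14 (95% interval -0.27 to 0.54) that became 0.36 without vehicle SP mouse 4. Ftcd was at 186, 156, 140 and 279 with vehicle and 230, 190, 164 and 174 with G108, with a log2 difference of 0.03 (95% interval -0.38 to 0.45), or 0.24 without that mouse. Both groups overlapped for both genes. Before scaling, Ftcd had the lowest coefficient of variation of any member in G108 SP livers (3.22%), with 251 to 269 TPM in the 4 G108 SP livers against 124 to 190 with vehicle. The log2 differences on that scale were 0.81 for Ftcd (adjusted p = 0.000986) and 0.91 for Uroc1 (adjusted p = 0.00143).

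The oxidases that open the proline and hydroxyproline routes had no call in scaled TPM. Prodh was at 27.6, 22.0, 29.9 and 64.7 with vehicle and 36.9, 35.9, 28.9 and 31.0 with G108. The estimate was 0.00 (95% interval -0.49 to 0.50) and became 0.32 without vehicle SP mouse 4, whose value was above every treated liver. Prodh2 was at 138, 124, 121 and 318 with vehicle and 171, 126, 118 and 100 with G108. It had the only negative estimate on the SP diet, -0.34 (95% interval -0.95 to 0.26), and this became -0.01 without vehicle SP mouse 4. Unscaled estimates were 0.76 for Prodh (adjusted p = 0.0068) and 0.43 for Prodh2 (adjusted p = 0.0824), so Prodh2 was the only member that passed on neither scale.

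**Figure D3:**
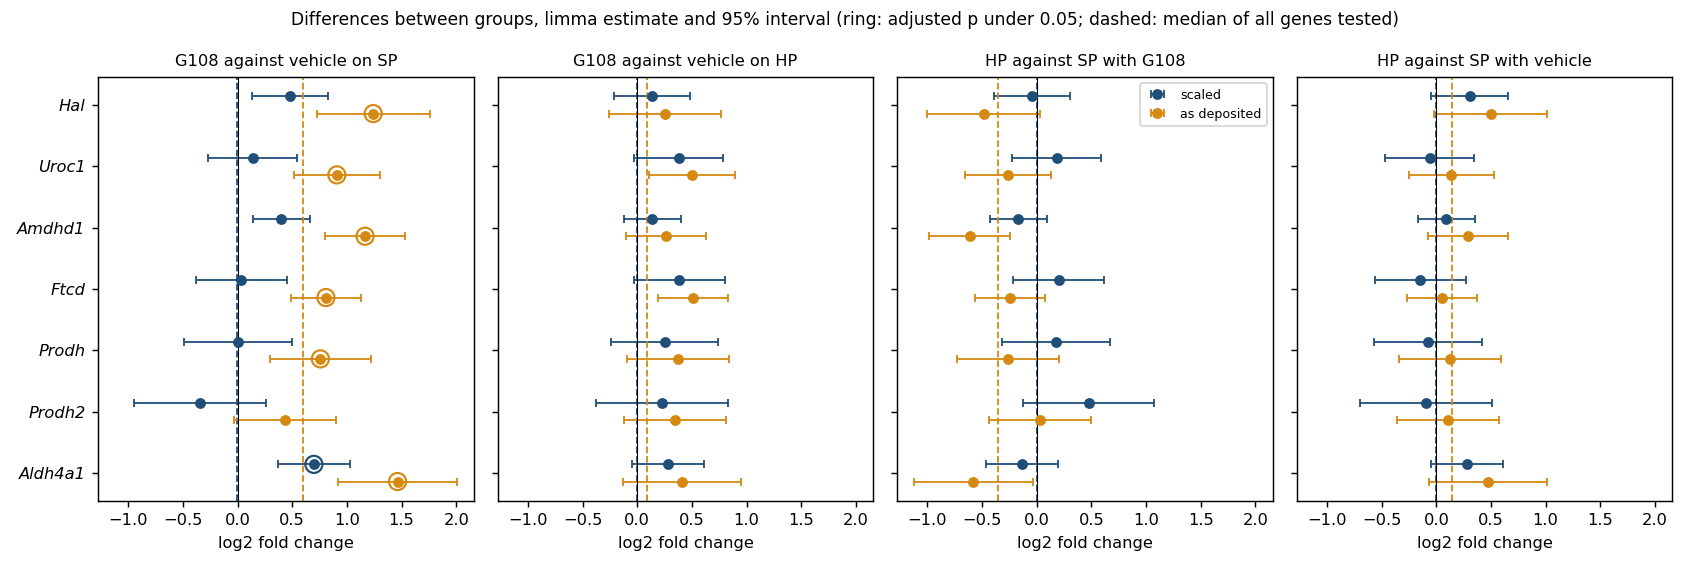
Points are limma log2 differences with 95% intervals for the 7 genes (rows) in 4 comparisons (panels), in scaled TPM (blue) and TPM as deposited (orange), and the dashed lines are the medians of all genes tested. Rings mark adjusted p under 0.05: Aldh4a1 in blue and 6 genes in orange, all in the panel for G108 on the SP diet.

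Ratios of 2 genes within a liver do not depend on the scaling and are given as a description. The ratio of Prodh2 to Aldh4a1 TPM had a geometric mean of 3.17 in vehicle SP, 2.44 in vehicle HP, 1.53 in G108 SP and 2.34 in G108 HP. It lay between 2.27 and 5.79 in the vehicle SP livers and between 1.08 and 2.53 in the G108 SP livers, so the groups overlapped through G108 SP mouse 1. Without vehicle SP mouse 4 the vehicle SP mean was 2.59. The ratio of Prodh to Aldh4a1 was 0.650, 0.509, 0.399 and 0.497 in the same order of groups, with 0.534 in vehicle SP without that mouse. Among histidine genes the ratio of Hal to Uroc1 differed less, at 0.306, 0.397, 0.392 and 0.335, and vehicle SP mouse 4 had the lowest single value (0.137), without which the vehicle SP mean was 0.400. Uroc1 over Amdhd1 was 1.82, 1.64, 1.51 and 1.94, with 1.55 in vehicle SP without that mouse.

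**Figure D4:**
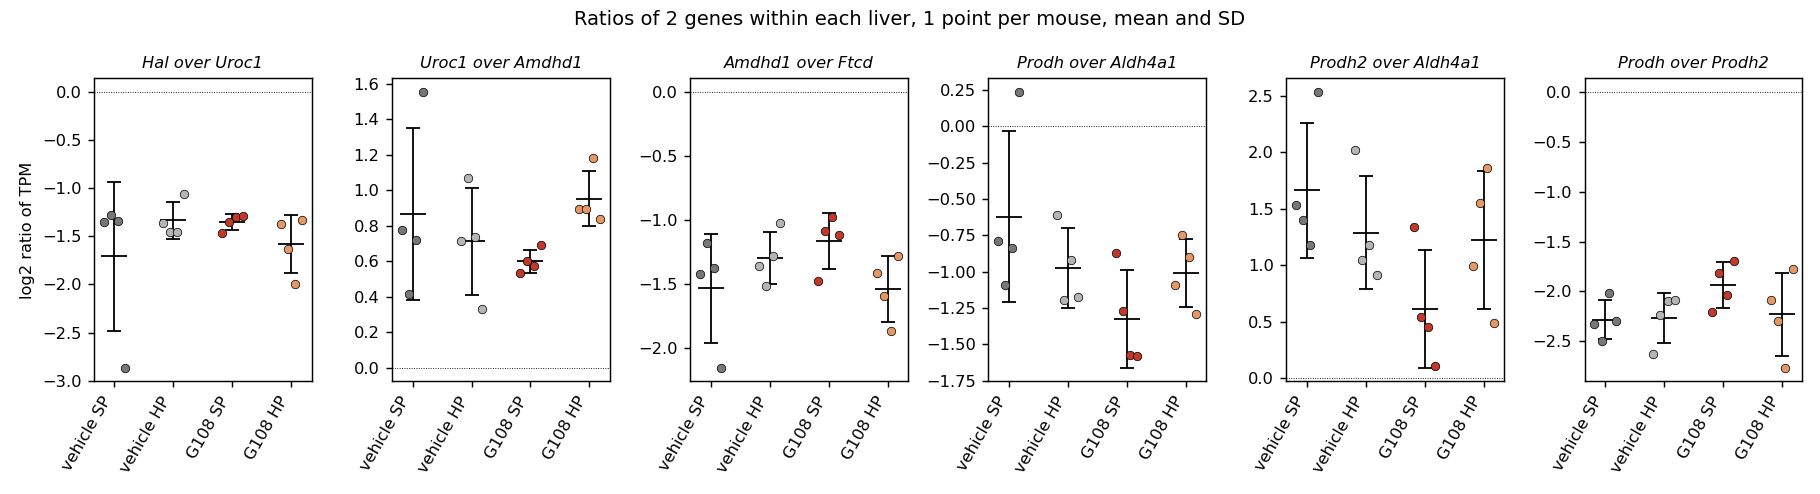
Points are log2 ratios of TPM of 2 genes in each liver for 6 pairs, with group mean and SD. The Prodh2 over Aldh4a1 panel is lowest in G108 SP livers, with 1 of the 4 inside the vehicle range, and vehicle SP mouse 4 is the extreme point in each panel except Prodh over Prodh2.

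On the HP diet, G108 was compared with vehicle on HP. By limma 0 of the 7 genes passed, against 1.22% of all genes, and 0 of 7 had an unadjusted p under 0.05. Limma-voom on recovered reads also gave 0. The count at an unadjusted p under 0.05 in the limma fit depended on the setting, with 0 members passing in each. It was 3 of 7 without vehicle SP mouse 4, as for 1781 of 11894 genes. With only the groups compared it was 3 (1494 of 11839 genes), and with array weights 4 (2787 of 11839). All 7 estimates were above 0 in scaled TPM and in TPM as deposited, with medians of 0.25 and 0.37 beside 0.00 and 0.09 for all genes. The scaled estimates ranged from 0.13 for Hal to 0.38 for Ftcd, and the unscaled ones from 0.26 for Hal to 0.51 for Ftcd. In the deposited values 0 of 7 passed (1.11% of all genes did) and 2 of 7, Uroc1 and Ftcd, did not overlap between groups, against 8.88% of all genes.

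Among the histidine genes, Ftcd was at 201, 150, 168 and 149 scaled TPM in vehicle HP livers and 199, 205, 273 and 198 in G108 HP livers. The groups overlapped through vehicle HP mouse 1. The log2 difference was 0.38 (95% interval -0.03 to 0.80, limma adjusted p = 0.495), and became 0.27 without G108 HP mouse 3, the liver at 273. The library of that mouse held 37.3% mitochondrial TPM and a summed red blood cell marker level of 2388 scaled TPM. The part of either in its values was not tested. Uroc1 was at 129, 110, 115 and 91.7 with vehicle and 138, 126, 170 and 145 with G108, also with a log2 difference of 0.38 (95% interval -0.03 to 0.79, adjusted p = 0.486), and only the lowest treated and the highest control liver crossed. Hal (40.0 to 50.0 against 40.7 to 57.9) and Amdhd1 (52.5 to 78.3 against 67.6 to 81.5) overlapped widely, with log2 differences of 0.13 and 0.14. The Hal estimate was 0.084 without G108 HP mouse 1, 0.21 without mouse 2 and 0.046 without mouse 4, and that of Amdhd1 was 0.21 without vehicle HP mouse 1 and 0.021 without vehicle HP mouse 2.

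For proline on the HP diet, Prodh was at 31.8, 29.6, 35.1 and 29.1 scaled TPM with vehicle and 35.6, 38.1, 35.1 and 41.2 with G108. It was the only member whose groups did not overlap, against 8.15% of all genes, but the gap was narrow and the log2 difference of 0.25 (SE 0.23) did not pass (adjusted p = 0.782). That SE came from a spread shared by all 16 livers, among which vehicle SP mouse 4 lay far from its group for Prodh. Over the alternatives the limma adjusted p of Prodh ran from 0.303 to 0.996. Aldh4a1 was at 48.5, 67.8, 66.5 and 65.8 with vehicle and 75.7, 64.0, 65.6 and 101 with G108. G108 HP mouse 4 was the highest of all 16 livers for this gene. The log2 difference was 0.29 (95% interval -0.04 to 0.61, adjusted p = 0.538), and became 0.15 without G108 HP mouse 4 and 0.17 without vehicle HP mouse 1. Prodh2 ranged from 124 to 196 with vehicle and from 141 to 239 with G108, a log2 difference of 0.22 (95% interval -0.38 to 0.83) that was 0.35 without vehicle HP mouse 1, 0.13 without vehicle HP mouse 4 and 0.076 without G108 HP mouse 3.

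The diet was compared within each treatment. With G108, 0 of 7 genes differed between HP and SP by limma (0% of all genes) and 0 had an unadjusted p under 0.05. The estimates ran from -0.17 for Amdhd1 to 0.47 for Prodh2, whose 95% interval was -0.13 to 1.08. Between the diets with vehicle, 0 of 7 passed (0% of all genes), 0 had an unadjusted p under 0.05, and the estimates ran from -0.15 for Ftcd to 0.30 for Hal (95% interval -0.04 to 0.65). Without vehicle SP mouse 4 they ran from 0.0553 for Ftcd to 0.32 for Aldh4a1, with 0.15 for Hal. Limma-voom gave 0 in both. The groups overlapped for all 7 genes in both diet comparisons in scaled TPM, where 4.27% of all genes with G108 and 2.01% with vehicle did not. Without scaling, 6 of 7 estimates with G108 were below 0, where the median of all genes was -0.35, and all 7 with vehicle were above 0, where it was 0.14. The unscaled groups did not overlap for 1 gene with G108 (Ftcd, lower on HP, against 20.7% of all genes) and for 1 with vehicle (Hal, higher on HP, against 1.47%).

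Whether the G108 difference itself depended on diet was tested by the interaction (the difference on HP minus that on SP). By limma 0 of 7 genes passed (0% of all genes) and 0 had an unadjusted p under 0.05 in scaled TPM, and limma-voom gave 0. Estimates were negative for Aldh4a1 (-0.41, 95% interval -0.88 to 0.05), Hal (-0.35) and Amdhd1 (-0.26), and positive for Prodh2 (0.57), Ftcd (0.35), Prodh (0.25) and Uroc1 (0.24). The positive estimates were much lower without vehicle SP mouse 4, at 0.24 for Prodh2, 0.15 for Ftcd, -0.0683 for Prodh and 0.021 for Uroc1, and those of Aldh4a1, Hal and Amdhd1 were then -0.45, -0.19 and -0.25. A lower Aldh4a1 difference on HP than on SP was therefore not shown, although the gene passed only on SP. In the limma test for any difference among the 4 groups, 0 of 7 passed (2.78% of all genes did). The lowest adjusted p was 0.0633 for Aldh4a1. At an unadjusted p under 0.05 there were 3 of 7, beside 1575 of 11839 genes. On unscaled values 6 of 7 passed that test, against 60.8% of all genes.

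The members did not all vary together between mice. With group means removed, Uroc1, Ftcd, Prodh and Prodh2 varied together, with Pearson r from 0.70 (Ftcd and Prodh) to 0.94 (Ftcd and Prodh2) over 16 livers. Hal and Amdhd1 had an r of 0.49, and Hal against Prodh2 an r of -0.68. Amdhd1 had r from -0.04 (Prodh) to 0.27 (Ftcd) with Uroc1, Ftcd, Prodh and Prodh2. Aldh4a1 had r from -0.40 to 0.20 with the others. Exon GC content ran from 48.6% for Hal and 49.4% for Amdhd1 to 58.3% for Prodh2, and was 57.0% for Aldh4a1. These correlations share libraries, scaling and vehicle SP mouse 4, and the part of GC content in them was not tested.

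**Figure D5:**
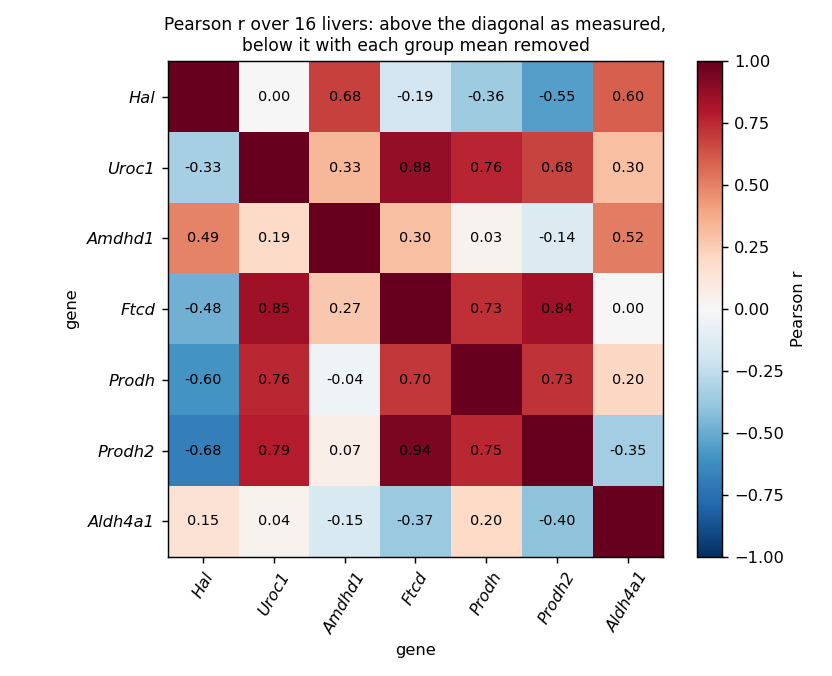
Pearson r of log2(scaled TPM + 1) between members over 16 livers, as measured above the diagonal and with group means removed below it. The block of Uroc1, Ftcd, Prodh and Prodh2 has r from 0.70 to 0.94 below the diagonal, and Hal has negative r with Uroc1, Ftcd, Prodh and Prodh2 there.

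The genes most alike each member over the 16 livers did not include another of the 7. For Aldh4a1 they were C2cd2l (r = 0.94), Wnk1 (0.92) and the overlapping Gm21969 (0.91). For Hal they were Gas2, Ctsl and Phb2 (0.94 to 0.93), and for Amdhd1 Arsa, Gm12718 and Tmem51 (0.84 to 0.83), the lowest values of any member. Prodh2 had the highest, with Hps5, Zfp950 and Nlrp6 (0.98 to 0.97), followed by Ftcd with Josd2, Tmem25 and Tert (0.97 to 0.95). For Uroc1 they were Gcc1, Gm28289 and Zbtb18 (0.93 to 0.92) and for Prodh Gm20708, Afmid and Gm44040 (0.91).

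Genes next to both routes were described from lists of related enzymes. On the SP diet in scaled TPM, 2 of 7 genes of glutamate disposal rose with G108, where 2.72% of all genes were called: Got1, the cytosolic aspartate aminotransferase (log2 difference 2.24, SE 0.28, limma adjusted p = 0.000481), and Gls2, the liver glutaminase (1.23, SE 0.18, adjusted p = 0.00186). Of the 3 tested genes that make proline or link it to ornithine, Oat, ornithine aminotransferase, rose (1.28, SE 0.22, adjusted p = 0.00497). The lists of other histidine enzymes, hydroxyproline and glyoxylate enzymes, and folate enzymes had 0 of 3, 0 of 4 and 0 of 6 called, with 1, 1 and 2 at an unadjusted p under 0.05. Of all genes, 2098 of 11839 had an unadjusted p under 0.05 in that limma fit. In TPM as deposited the called counts were 7 of 7 for glutamate disposal, 3 of 3 for proline synthesis, 2 of 3 for other histidine enzymes, 4 of 4 for hydroxyproline and 6 of 6 for folate, where 77.6% of all genes were called. On the HP diet 0 genes of these 5 lists passed on either scale (1.22% of all genes scaled), and Got1, Oat and Gls2 had scaled log2 differences of 0.88, 0.62 and 0.76. The scaled medians on the SP diet were 0.17 for glutamate disposal, 0.20 for proline synthesis, -0.09 for other histidine enzymes, 0.17 for hydroxyproline and 0.20 for folate, beside -0.01 for all genes.

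Markers of other cell types and of the liver zones are given beside the SP results. Summed scaled TPM of 6 periportal markers was 369 to 552 in vehicle SP and 479 to 661 in G108 SP, and that of 9 pericentral markers 2466 to 4364 and 2843 to 3727, so both overlapped. As deposited neither did, at 251 to 492 and 562 to 989 TPM for periportal and 1679 to 3887 and 3931 to 4628 for pericentral markers. Of those tested on the SP diet, 1 of 6 periportal markers (Gls2) and 2 of 8 pericentral markers (Oat and Slc1a2, a glutamate transporter with a log2 difference of 0.63, SE 0.11, limma adjusted p = 0.00522) were called higher in scaled TPM, where 2.72% of all genes were called. The periportal median was 0.33 and 3 of 6 had an unadjusted p under 0.05, a level that 2098 of 11839 genes reached. Of 3 sinusoidal endothelium markers tested, 0 were called and 3 had an unadjusted p under 0.05, with a median of -0.36 and summed scaled TPM (4 markers) of 18.7 to 26.5 in vehicle SP and 15.5 to 17.0 in G108 SP. Of 5 red blood cell markers 0 were called and 3 had an unadjusted p under 0.05, with a median of -0.22 and sums of 843 to 3094 and 656 to 919. The part of these markers in the Aldh4a1 difference was not tested.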

How the data were processed

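Liver RNA was extracted with TRIzol and sequenced by Novogene. Per the submitters' processing notes, reads were checked with FastQC 0.11.8, aligned to GRCm38 with HISAT2 2.0.5 and counted with featureCounts, and DESeq2 1.36.0 was used by the authors. Whether counting used strand is not given in the sources used here. The deposited values were TPM, computed by the authors from gene counts and exon length. TPM does not hold depth, but within a library values are whole multiples of what 1 read is worth for a gene's length. With exon lengths from the GENCODE annotation of the same build, 98.9% of 113146 low values were whole reads within 0.02, which gave 27804258 to 45033380 reads per library.

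TPM was divided by each library's median-of-ratios factor (0.681 to 1.54), because the authors' DESeq2 scales counts so and the Mup share differed between groups. Genes averaging 1 TPM or more were kept, and log2(value + 1) was fitted with limma 3.58.1 in R 4.3.3, with 1 mean per group, all 16 libraries and a mean-variance trend. Log2 differences are on that scale and understate changes of low genes. P-values were adjusted by Benjamini-Hochberg over 11839 genes, and calls were made at 0.05. All 7 members are named in each comparison, up to 4 called genes of each other list, and the 3 genes most correlated with each member. The members and lists were chosen with earlier results of these data known. Of 55487 gene IDs, 55141 matched a symbol. The script was tested on simulated data, where a log2 change of 1 was added to 200 of 11839 genes in G108 SP and 76.5% of them were recovered.

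Each library was a separate mouse. Mouse numbers were not treated as pairs in the main fit. Of 24 same-number pairs, 8 had a correlation of deviations over 0.1 (-0.57 to 0.53), with a median of -0.03. Other pairs had a median of 0.02 and reached 0.60. With correlations this wide in both kinds of pair, these values cannot decide whether the numbers pair the animals. Alternatives were TPM as deposited, rescaling without mitochondrial and Mup genes, a pseudocount of 0.1, no filter or a minimum of 5, only the groups compared, array weights, a replicate block and each library left out. Limma-voom on recovered reads and a GC covariate were added after seeing the data.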

Additional observations from a re-analysis of the deposited data

Results flagged for a closer look

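In 3 of 28 gene and group sets of scaled TPM, 1 mouse lay far from the other 3, with a gap to its nearest neighbour, as a share of the group's whole range, above Dixon's limit for 4 values. This was Prodh2 in vehicle SP (0.916, mouse 4 high), Ftcd in G108 HP (0.909, mouse 3 high, in the library with 37.3% mitochondrial TPM) and Aldh4a1 in vehicle HP (0.898, mouse 1 low). Chance gives about 1 in 20 such sets, and 0 of 28 passed the limit in TPM as deposited.

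Without scaling, the G108 difference was lower on HP than on SP for Aldh4a1 (interaction -1.05), Hal (-0.98) and Amdhd1 (-0.90) at an unadjusted p under 0.05, with a limma adjusted p of 0.0799 for each, so the difference did not pass over all genes. Of all genes, 5685 of 11839 had an unadjusted p under 0.05 for the interaction in that limma fit. The median interaction of all genes on that scale was -0.49, and the scaled estimates were -0.41, -0.35 and -0.26. The adjusted p over the alternatives ran from 0.0799 to 0.86 for all 3.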

How the results depend on the processing

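On the SP diet the count of members called for G108 was 1, where 2.72% of all genes were called. It became 6 in TPM as deposited, where 77.6% of all genes were called. With array quality weights it was 4 (Aldh4a1, Hal, Amdhd1 and Uroc1), where 15.4% of all genes were called. With the GC covariate it was 2 (Aldh4a1 and Hal). It was 0 with rescaling without mitochondrial and Mup genes (2.36% of all genes), with no filter (0.726%) or with only the groups compared (0.87%). With a library left out it was 0 to 1. With mouse number as a replicate block it stayed at 1 (Aldh4a1, limma adjusted p = 0.0229), against 1.8% of all genes. The block changed no other call of a member. The test for any difference among groups gave 6 in TPM as deposited (60.8% of all genes) and 3 with array weights (16.8% of all genes). With a library left out it gave 0 to 1. In the other 4 comparisons the count was 0 under every alternative run. The cause of these shifts was not tested. Of 903 single-gene values under alternatives, 845 kept direction and side of the threshold and 42 changed sign, none of them for Aldh4a1 on the SP diet.

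Sign changes in TPM as deposited were as follows. Prodh2 with G108 on SP was 0.43. For HP against SP with G108, Uroc1 was -0.27, Ftcd -0.24 and Prodh -0.26. For HP against SP with vehicle, Uroc1 was 0.14, Ftcd 0.0551, Prodh 0.12 and Prodh2 0.11. The interaction was -0.40 for Uroc1, -0.30 for Ftcd, -0.39 for Prodh and -0.0824 for Prodh2. With array weights Hal was 0.0179 for diet with G108, Uroc1 0.18, Ftcd 0.0185, Prodh 0.35 and Prodh2 0.17 for diet with vehicle, and the interaction -0.0522 for Uroc1 and -0.13 for Prodh. With the GC covariate Uroc1 was -0.00723, Ftcd -0.10 and Prodh -0.12 for G108 on SP, and Uroc1 0.0602, Prodh 0.0326 and Prodh2 0.0774 for diet with vehicle. With 1 library left out the ranges that crossed 0 were -0.10 to 0.24 for Ftcd and -0.19 to 0.32 for Prodh (G108 on SP), -0.13 to 0.0345 for Hal (diet with G108), -0.19 to 0.16 for Uroc1, -0.28 to 0.0553 for Ftcd, -0.26 to 0.24 for Prodh and -0.22 to 0.24 for Prodh2 (diet with vehicle), and -0.0683 to 0.44 for Prodh (interaction).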
